A study of Oryza sativa with 17 samples.

Results

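The expression of 9 genes that encode late embryogenesis abundant (LEA) proteins, dehydrins and an Em protein was followed in germinating seeds of WR04-6 (weedy rice) and QSZ (cultivated rice) at 10 °C. The genes were taken by a list of gene IDs: the 4 RAB16-type dehydrin genes of chromosome 11, the dehydrin gene DHN1, the Em gene EMP1, 2 LEA3-type genes and a LEA14-like gene. All 9 were among the 23223 genes of the deposited table and among the 21949 genes tested, and none was at 0 in any library. The seed libraries fell into 6 groups: WR04-6, sampled 10, 12 or 14 days after the seeds were imbibed (DAI), with 3 libraries a day, and QSZ at 10 DAI with 2 libraries (replicates 2 and 3) and at 12 and 14 DAI with 3 libraries each. Weedy and cultivated rice were each represented by 1 accession, and both were germinated at low temperature, so no group had seeds at a warmer temperature. The question behind the study was how the accessions differ in gene expression during low-temperature germination (LTG).

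LEA proteins are small, very hydrophilic and largely unfolded proteins that accumulate in the embryo and aleurone while a seed dries at the end of its development, and they are thought to protect membranes and other proteins from water loss. They are divided into groups by sequence. Em proteins belong to group 1, dehydrins to group 2 and carry lysine-rich K-segments, and the LEA3-type proteins belong to group 3 and hold many copies of a short repeat. Abscisic acid (ABA) and drying induce most of them, and their mRNAs normally decline once a seed germinates.

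All 9 genes had lower values in WR04-6 than in QSZ at each day. Gene expression was measured as FPKM (fragments per kilobase of transcript, scaled to the mapped fragments of the library), and the quasi-likelihood test of edgeR was run on the deposited estimated counts, with p-values adjusted over all genes tested by the Benjamini-Hochberg method. A gene was called when its adjusted p was below 0.05 and its log2 fold change was at least 1 in size. Of the 9 genes, 8 were called lower in WR04-6 at 10 DAI, 9 at 12 DAI and 9 at 14 DAI. Among all genes tested, 11.4% were called lower in WR04-6 at 10 DAI, 13.2% at 12 DAI and 10.9% at 14 DAI. The 9 genes were chosen with earlier results of these data known. The counts and adjusted p-values given here for them are therefore descriptions and not an independent test. The median log2 fold change of the 9 genes, WR04-6 vs. QSZ, was -2.13 at 10 DAI, -3.72 at 12 DAI and -3.48 at 14 DAI, whereas that of all genes tested was 0.03, 0.06 and 0.08. The size depended on the scaling, and quantile normalization with limma gave the 9 genes medians of -1.58, -2.89 and -2.70. When single libraries were omitted, 7 to 9 of the 9 genes were called at 10 DAI and 9 at both later days. The libraries of QSZ at 14 DAI stood farthest apart, with replicate 1 the highest and replicate 3 the lowest in all 9 genes. Summed over the 9 genes, 0.169% to 0.390% of all estimated counts came from them in single WR04-6 libraries, against 0.630% to 3.07% in single QSZ libraries. These were bulk samples of seeds, in which fewer cells of a type and less RNA per cell cannot be told apart. The paper reports that in the cold the weedy accession began to germinate before the cultivated accession and reached a higher germination rate. The same day can therefore be a different stage of germination in each accession, and every comparison between the accessions mixes accession with stage. The part of germination stage in these differences was not tested.

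**Figure D1:**
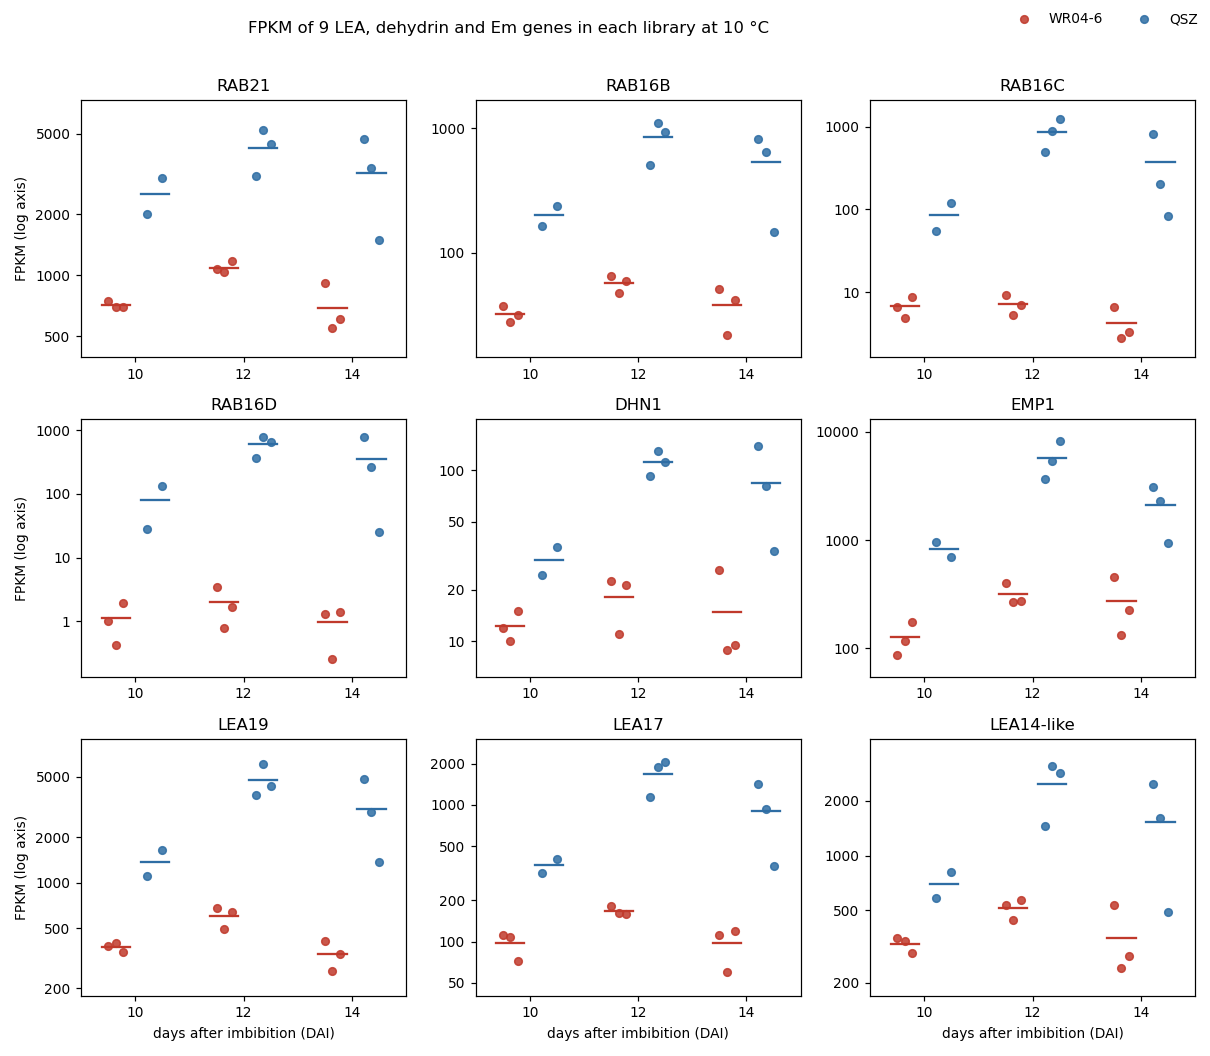
FPKM of each of the 9 genes in each library on a log axis that differs between panels, against days after imbibition, with WR04-6 in red to the left of QSZ in blue, points for libraries and bars for group means. The libraries of WR04-6 lie below those of QSZ in every panel and day except LEA14-like at 14 DAI, where the highest WR04-6 library (534) is above the lowest QSZ library (490.3).

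The 4 dehydrin genes of chromosome 11 lie on the minus strand within 23670 bp in the MSUv7.0 coordinates of the table. RAB16D (LOC_Os11g26750) is at 15320188-15321526, RAB16C (LOC_Os11g26760) at 15327768-15328657, RAB16B (LOC_Os11g26780) at 15336034-15337163 and RAB21 (LOC_Os11g26790, known in rice also as RAB16A) at 15342564-15343857. Such tandem copies resemble each other in sequence, so reads can be shared between them, and the sources used here do not say how such reads were split between them. Reads of both accessions were also placed on the same reference genome. A sequence difference between the accessions could change the reads counted for a copy, which was not tested. The level of a single copy, and its difference between the accessions, is therefore uncertain.

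RAB21, a dehydrin induced in rice by ABA, drought and salt, had the highest mean FPKM of the 9 genes in WR04-6 at each of the 3 days. At 10 DAI its FPKM was 751, 702 and 694 in the WR04-6 libraries, against 2006 and 3017 in the QSZ libraries. At 12 DAI it was 1071, 1035 and 1175 in WR04-6, against 3099.9, 5239.7 and 4455 in QSZ, and at 14 DAI it was 916, 551 and 606 in WR04-6, against 4732, 3376 and 1496 in QSZ. The highest of the 9 WR04-6 libraries was below the lowest of the 8 QSZ libraries. The log2 fold change was -2.03 ± 0.38 (standard error) at 10 DAI, -2.34 ± 0.36 at 12 DAI and -2.51 ± 0.36 at 14 DAI (edgeR, adjusted p = 0.000764, 0.000133 and 0.000107). With quantile normalization of log2(FPKM + 0.1) and limma, the log2 fold change of RAB21 was -0.71, -0.32 and -0.69 (adjusted p = 0.225, 0.548 and 0.189), while the other 11 alternatives that kept all libraries gave adjusted p-values below 0.05 at each day.

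RAB16B, the neighbour of RAB21, was 6.18-fold lower by mean FPKM in WR04-6 at 10 DAI, 14.8-fold lower at 12 DAI and 13.9-fold lower at 14 DAI. At 10 DAI its libraries had FPKM of 37.5, 28.0 and 32.1 in WR04-6, against 164 and 238 in QSZ. At 12 DAI they had 65.2, 47.6 and 59.2 in WR04-6, against 508, 1101 and 932 in QSZ, and at 14 DAI 51.1, 22.2 and 41.9 in WR04-6, against 814, 643 and 147 in QSZ. Replicate 3 of QSZ at 14 DAI was the lowest QSZ library and still exceeded every WR04-6 library 2.26-fold or more. WR04-6 differed from QSZ by a log2 fold change of -2.85 ± 0.54, -4.27 ± 0.55 and -4.09 ± 0.54 at the 3 days (edgeR, adjusted p = 0.000803, 2.65e-05 and 4.65e-05).

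RAB16C ranked 11110 of 23223 by mean FPKM in WR04-6 at 12 DAI and 78 in QSZ at that day. At 10 DAI the WR04-6 libraries had FPKM of 6.63, 4.82 and 8.84, against 54.9 and 118 in QSZ. At 12 DAI they had 9.18, 5.37 and 7.08, against 493, 892 and 1226 in QSZ, and at 14 DAI 6.64, 2.77 and 3.30, against 819.5, 203 and 83.5 in QSZ. The libraries of QSZ at 14 DAI thus spanned 9.82-fold, but the lowest QSZ library of any day was 5.98-fold above the highest WR04-6 library. Its log2 fold change was -3.87 ± 0.76, -7.30 ± 0.85 and -6.74 ± 0.83 (edgeR, adjusted p = 0.00102, 1.18e-05 and 2.51e-05). Without replicate 1 of QSZ at 14 DAI, the value at that day was -5.33 (edgeR, adjusted p = 1.27e-05).

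RAB16D had the largest difference of the 9 genes at each day. Its libraries at 10 DAI had FPKM of 0.990, 0.426 and 1.91 in WR04-6, against 27.7 and 134 in QSZ. At 12 DAI they had 3.44, 0.780 and 1.68 in WR04-6, against 369, 789 and 654 in QSZ, and at 14 DAI 1.32, 0.252 and 1.39 in WR04-6, against 769.9, 266 and 24.8 in QSZ. In WR04-6 the gene rested on 16 to 258 estimated counts per library, where 1 sequenced fragment stands for about 4 estimated counts, so its level there is imprecise. The log2 fold change was -6.35 ± 1.21, -8.63 ± 1.28 and -8.78 ± 1.31 (edgeR, adjusted p = 0.000816, 9.67e-05 and 0.000129). It was -4.95 at 10 DAI without replicate 3 of QSZ at 10 DAI and -7.45 at 14 DAI without replicate 1 of QSZ at 14 DAI (edgeR, adjusted p = 0.00722 and 0.000277). It was -7.06 at 10 DAI without replicate 3 of WR04-6 at 10 DAI and -9.32 at 12 DAI without replicate 1 of WR04-6 at 12 DAI.

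By these values, the 4 copies made up their summed FPKM in different proportions in the accessions. The shares are as uncertain as the level of each copy, since reads can be shared between copies and both accessions were placed on the same reference genome. RAB21 contributed 92.9% to 95.6% of the sum in the 9 WR04-6 libraries and 61.3% to 89.0% in the 8 QSZ libraries. RAB16D contributed 0.0438% to 0.299% in WR04-6 and 1.23% to 10.8% in QSZ, and RAB16C 0.481% to 1.20% in WR04-6 and 2.44% to 16.9% in QSZ. None of these 3 ranges overlapped between the accessions. Within QSZ, the share of RAB21 was 89.0% and 86.0% at 10 DAI and 69.4%, 65.3% and 61.3% at 12 DAI, and it lay between 66.3% and 85.4% at 14 DAI. In WR04-6 its mean share was 94.7% ± 0.711 at 10 DAI, 94.3% ± 0.948 at 12 DAI and 94.1% ± 1.40 at 14 DAI (SD, n = 3 each), a difference smaller than the spread between replicates. No p-value was computed for these shares. The genes were chosen with results of these data known, a limit that the p-values of the single genes share.

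**Figure D2:**
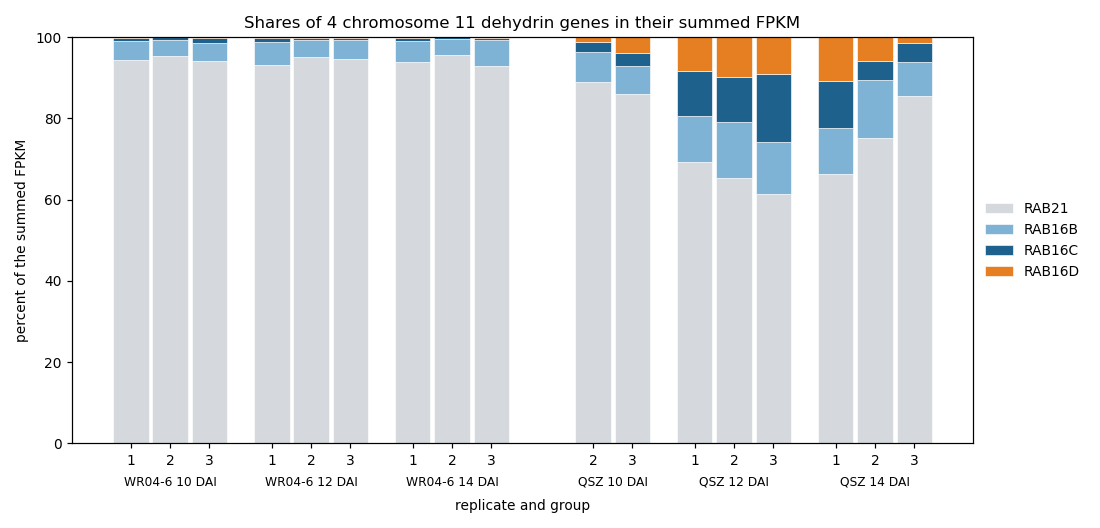
Share of each of the 4 chromosome 11 dehydrin genes in their summed FPKM (percent) in each library, with replicate numbers below the bars and the 9 WR04-6 libraries to the left of the 8 QSZ libraries. RAB21 takes at least 92.9% in each WR04-6 library and at most 89.0% in each QSZ library, where RAB16B, RAB16C and RAB16D fill the rest.

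The table holds 2 other genes within 50 kb of the cluster, both described as hypothetical proteins. LOC_Os11g26720 had a mean FPKM of 0.746 in WR04-6 and 1.37 in QSZ at 14 DAI and was called lower at that day, with a log2 fold change of -1.16 ± 0.40 (edgeR, adjusted p = 0.0346), and was not called at 10 or 12 DAI. LOC_Os11g26710 was not called at any day.

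DHN1 (LOC_Os02g44870, chromosome 2, 27165434-27166898, minus strand), a dehydrin also named LIP9 in rice and known to respond to cold and drought, had the lowest mean FPKM of the 9 genes in QSZ at each day. At 10 DAI its libraries had FPKM of 11.9, 9.99 and 15.0 in WR04-6, against 24.5 and 35.4 in QSZ. At 12 DAI they had 22.5, 10.97 and 21.2 in WR04-6, against 92.4, 129.7 and 112 in QSZ, and at 14 DAI 26.2, 8.92 and 9.51 in WR04-6, against 138, 80.9 and 33.5 in QSZ. The groups did not overlap within any day, although replicate 1 of WR04-6 at 14 DAI was above replicate 2 of QSZ at 10 DAI. DHN1 had log2 fold changes of -1.50 ± 0.53, -2.98 ± 0.52 and -2.79 ± 0.51 (edgeR, adjusted p = 0.0361, 0.000337 and 0.000711). The value at 14 DAI was -2.20 without replicate 1 of QSZ and -3.49 without replicate 1 of WR04-6 at that day. At 10 DAI the call was lost without replicate 1 or replicate 2 of WR04-6 at 10 DAI and without either QSZ library of 10 DAI. The adjusted p at that day was 0.0155 to 0.142 when single libraries were omitted and 0.00466 to 0.0705 under the other alternatives, with the call lost under scaling by library totals alone and in limma on log2(FPKM + a pseudocount of 0.1, 1 or 0.01).

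EMP1 (LOC_Os05g28210, chromosome 5, 16518574-16519496, minus strand) is described in the table as embryonic abundant protein 1 and is the Em gene of the set, which in cereal embryos is a classical marker of the ABA response. At 10 DAI it had FPKM of 86.3, 117 and 177 in WR04-6, against 967 and 700.5 in QSZ. At 12 DAI it had 406, 270.1 and 276 in WR04-6, against 3709, 5339 and 8295 in QSZ, and at 14 DAI 457, 133 and 224 in WR04-6, against 3130.3, 2306 and 943 in QSZ. All WR04-6 libraries were below all QSZ libraries, and in QSZ at 12 DAI the gene ranked 5 of all genes in the table by mean FPKM, whereas it ranked 170 in WR04-6 at that day. EMP1 had log2 fold changes of -2.95 ± 0.57, -4.58 ± 0.59 and -3.26 ± 0.55 (edgeR, adjusted p = 0.000950, 2.65e-05 and 0.000368). Without replicate 1 of WR04-6 at 14 DAI, the value at that day was -3.87.

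LEA19 (LOC_Os05g46480, chromosome 5, 26927607-26928902, plus strand) and LEA17 (LOC_Os03g20680, chromosome 3, 11699262-11700672, minus strand) are LEA3-type genes, which the RefSeq annotation also lists as LEA3-1 and LEA3-2. Raised expression of LEA3-1 is known to improve drought resistance of rice. LEA19 had FPKM of 379.9, 402 and 349 in WR04-6, against 1109 and 1642 in QSZ, at 10 DAI. At 12 DAI it had 676, 491 and 635 in WR04-6, against 3772, 6096 and 4352 in QSZ, and at 14 DAI 409, 262 and 335 in WR04-6, against 4845, 2915 and 1358 in QSZ. Its accessions did not overlap in any pair of days, and the log2 fold change was -2.09 ± 0.40, -3.35 ± 0.39 and -3.48 ± 0.40 (edgeR, adjusted p = 0.000842, 1.25e-05 and 1.18e-05).

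LEA17 was less abundant than LEA19 in every group by mean FPKM. Its libraries at 10 DAI had FPKM of 112, 107 and 72.5 in WR04-6, against 319.7 and 404 in QSZ. At 12 DAI they had 182, 161 and 160.3 in WR04-6, against 1138, 1881 and 2044 in QSZ, and at 14 DAI 112, 59.9 and 119.9 in WR04-6, against 1409.6, 934 and 356 in QSZ. The lowest QSZ library was 1.76-fold above the highest WR04-6 library. The log2 fold change was -2.13 ± 0.45, -3.72 ± 0.45 and -3.50 ± 0.44 (edgeR, adjusted p = 0.00165, 1.57e-05 and 3.14e-05).

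The LEA14-like gene (LOC_Os01g50910, chromosome 1, 29233028-29234256, minus strand) is described as late embryogenesis abundant protein 14-like, and its LEA group was not determined. At 10 DAI it had FPKM of 355, 339.8 and 289.9 in WR04-6, against 587 and 815 in QSZ. At 12 DAI it had 534, 440.3 and 572 in WR04-6, against 1449, 3097 and 2849.7 in QSZ, and at 14 DAI 534, 241 and 282 in WR04-6, against 2492, 1607 and 490.3 in QSZ. At 14 DAI the groups overlapped, with replicate 1 of WR04-6 above replicate 3 of QSZ. The log2 fold change was -1.32 ± 0.51, -2.64 ± 0.49 and -2.42 ± 0.49 (edgeR, adjusted p = 0.0510, 0.000590 and 0.00143), so that the gene was not called at 10 DAI. At that day it was called without replicate 1 of WR04-6 at 14 DAI, without replicate 1 of QSZ at 12 DAI or without replicate 1 or replicate 3 of QSZ at 14 DAI, in DESeq2 and under 4 other alternatives, and its adjusted p was 0.0102 to 0.174 when single libraries were omitted. With quantile normalization and limma, the value at 12 DAI was -0.98 (adjusted p = 0.0623).

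Counted by libraries rather than by the test, all WR04-6 libraries of a day were below all QSZ libraries of that day in 9 of the 9 genes at 10 DAI, 9 at 12 DAI and 8 at 14 DAI. Among all genes tested this held for 21.7%, 16.1% and 15.1%. All 9 WR04-6 libraries were below all 8 QSZ libraries, whatever the day, in 7 of the 9 genes, the exceptions being DHN1 and LEA14-like, and in 5.74% of all genes tested.

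Over the days, the genes changed most in QSZ between 10 and 12 DAI. In QSZ, 7 of the 9 genes were called higher at 12 DAI than at 10 DAI, against 5.55% of all genes tested, and the median log2 fold change of the 9 was 2.22. All 3 libraries of 12 DAI were above both libraries of 10 DAI in all 9 genes and in 19.4% of all genes tested. RAB16C rose by a log2 fold change of 3.50 ± 0.84, EMP1 by 2.92 ± 0.64 and LEA17 by 2.37 ± 0.49 (edgeR, adjusted p = 0.00765, 0.00452 and 0.00347), and RAB16C by 4.14 without replicate 3 of QSZ at 10 DAI. RAB21 and RAB16D were not called, with log2 fold changes of 0.91 ± 0.40 and 3.09 ± 1.17 (edgeR, adjusted p = 0.101 and 0.0625). For RAB16D the value was 2.39 without replicate 2 and 4.59 without replicate 3 of QSZ at 10 DAI. QSZ at 10 DAI had only 2 libraries, and without its replicate 2 the number called was 2, EMP1 and LEA17, while without its replicate 3 it was 5. The depth of these 2 libraries was also the lowest of the series, with totals of 33280479 and 42313486 estimated counts, against 51209499 to 72494532 in the other 15 libraries.

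Between 12 and 14 DAI in QSZ, all 9 log2 fold changes were negative (median -0.78), but 0 genes were called in edgeR, against 0.282% of all genes tested in either direction. EMP1 and LEA17 were at an unadjusted p below 0.05, with log2 fold changes of -1.55 ± 0.52 and -1.01 ± 0.41 (adjusted p = 0.128 and 0.194), and DESeq2 called 1, EMP1. Without replicate 1 of QSZ at 14 DAI, edgeR called RAB16C, LEA19 and LEA17, and without replicate 1 of QSZ at 12 DAI it called EMP1. From 10 to 14 DAI in QSZ, 0 genes were called in edgeR, against 1.62% of all genes tested, although 7 were at an unadjusted p below 0.05 and all 9 values were positive (median 1.37). DESeq2 called 5 at that comparison, and edgeR called 4 without replicate 3 of QSZ at 14 DAI, namely RAB16B, RAB16C, LEA19 and LEA17.

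In WR04-6, no gene of the 9 was called between any 2 days, against 0.0273% of all genes tested from 10 to 12 DAI, 0.688% from 12 to 14 DAI and 0.241% from 10 to 14 DAI. The median log2 fold change of the 9 was 0.66 from 10 to 12 DAI and -0.67 from 12 to 14 DAI. At an unadjusted p below 0.05 stood EMP1 from 10 to 12 DAI, with 1.296 ± 0.51 (edgeR, adjusted p = 0.483), LEA19 from 12 to 14 DAI, with -0.85 ± 0.36 (adjusted p = 0.342), and 0 genes from 10 to 14 DAI, and DESeq2 called 0 in each of these comparisons. All 3 libraries of 12 DAI were above all 3 of 10 DAI in 6 of the 9 genes and in 8.82% of all genes tested. In both accessions all 9 genes had their highest mean FPKM at 12 DAI.

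Whether the difference between the accessions itself changed with the day was tested with the interaction of accession and day. In edgeR, 0 of the 9 genes passed an adjusted p of 0.05, against 8.98% of all genes tested. At an unadjusted p below 0.05 stood RAB16C, LEA19 and LEA17 (adjusted p = 0.0871, 0.181 and 0.182). DESeq2 called 1, RAB16C. Leaving out replicate 3 of QSZ at 14 DAI brought RAB16C, LEA19 and LEA17 below the threshold and leaving out replicate 1 of QSZ at 14 DAI brought RAB16C below it. With all libraries, a change of the difference with the day was therefore not shown for any of the 9 genes in edgeR.

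The spread between replicates was widest in QSZ at 14 DAI, where the coefficient of variation had a median of 62.2% over the 9 genes (range 50.8% to 107.5%). It had a median of 20.6%, 16.2% and 45.1% in WR04-6 at 10, 12 and 14 DAI and of 25.9% and 35.4% in QSZ at 10 and 12 DAI. Replicate 1 of QSZ at 14 DAI was the highest library of its group in all 9 genes and replicate 3 the lowest in all 9. In WR04-6 at 14 DAI, replicate 2 was the lowest in all 9 genes, and in QSZ at 12 DAI replicate 1. In these groups a library was thus high or low in all 9 genes at once. Storage protein transcripts of the starchy endosperm ran the other way in QSZ. The summed FPKM of 4 such genes at 14 DAI was 8737 in replicate 1 and 23290.4 in replicate 3, where the 9 genes summed to 19150.4 and 4933. At 12 DAI in QSZ it was 21307 in replicate 1, against 9689 and 9736 in the other replicates. In WR04-6 at 14 DAI, replicate 2 was lowest in both sums. The summed FPKM of 2 oleosin genes, markers of embryo and aleurone, was 2341 in replicate 1 and 1133 in replicate 3 of QSZ at 14 DAI. At 12 DAI in QSZ it was 2656 in replicate 1, against 3382 and 4196. These sums thus ran the same way as those of the 9 genes at both days. At 10 DAI in QSZ they did not, with 1128 in replicate 2 and 1115 in replicate 3. The part of these transcripts in the spread of the 9 genes was not tested. The pairwise Pearson's r of log2(FPKM + 0.1) between the 9 genes had a median of 0.722 over the 9 WR04-6 libraries (36 pairs, range 0.353 to 0.955) and of 0.956 over the 8 QSZ libraries (36 pairs, range 0.772 to 0.994). These correlations are descriptions, since the genes share the depth and the day of each library.

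By mean FPKM, a value per length of transcript, RAB21 was first of the 9 genes in both accessions at 10 DAI (716 in WR04-6 and 2511 in QSZ) and at 14 DAI (691 in WR04-6 and 3202 in QSZ). At 12 DAI it was first in WR04-6 alone. In WR04-6 at 12 DAI the order was RAB21 (1094 ± 72.5, SD, n = 3), LEA19 (601 ± 97.3), LEA14-like (516 ± 67.9), EMP1 (317 ± 76.7), LEA17 (168 ± 12.2), RAB16B (57.3 ± 8.97), DHN1 (18.2 ± 6.32), RAB16C (7.21 ± 1.91) and RAB16D (1.96 ± 1.35). LEA19 and LEA14-like lay within their spread of each other, and the libraries of the other neighbours in this order did not overlap. In QSZ at 12 DAI the order was EMP1 (5781 ± 2325, SD, n = 3), LEA19 (4740.1 ± 1210), RAB21 (4265 ± 1083), LEA14-like (2465 ± 889), LEA17 (1687 ± 483), RAB16C (870.3 ± 367), RAB16B (847 ± 306), RAB16D (604 ± 214) and DHN1 (111 ± 18.6). Only RAB21 and LEA14-like, and RAB16D and DHN1, were neighbours whose libraries did not overlap there.

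Other genes of the LEA family were taken from the table, 13 genes beside the 9. Their descriptions gave 12 of them, and LOC_Os01g50700 was added by its gene ID. Of these, 11 were called lower in WR04-6 at each of the 3 days and none was called higher, and 10 were called at all 3 days. For all genes tested the share called lower was 11.4% at 10 DAI, 13.2% at 12 DAI and 10.9% at 14 DAI. The median log2 fold change of the 13 genes was -1.81 at 10 DAI, -3.24 at 12 DAI and -3.01 at 14 DAI. LOC_Os12g43140, a LEA protein of the D-34 type, had a mean FPKM of 7.30 in WR04-6 and 509 in QSZ at 12 DAI, and its log2 fold change was -4.02, -6.49 and -5.44 at the 3 days. LOC_Os08g23870, an 11 kDa LEA protein, had log2 fold changes of -4.02, -4.55 and -4.39, and LOC_Os06g23350, another D-34 protein, had -2.60, -4.08 and -3.77. The group 3 gene LOC_Os03g07180 had -2.27, -3.78 and -3.76, with a mean FPKM of 308 in WR04-6 and 3269 in QSZ at 12 DAI, and LEA18 (LOC_Os04g49980) had -2.71, -3.86 and -3.35. The values of LOC_Os01g50700 were -3.33, -4.99 and -4.13. The table describes this gene only as a hypothetical protein, and without it 10 of 12 were called at each day. In edgeR the adjusted p of these 6 genes was at most 0.000691 at each day.

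The 3 genes of the family not called at every day were dehydrin 13 (LOC_Os03g45280), LOC_Os04g50970 and LOC_Os12g39200. Dehydrin 13 was not called at any day, with log2 fold changes of -0.37 ± 0.37, 0.24 ± 0.34 and 0.36 ± 0.34 (edgeR, adjusted p = 0.454, 0.580 and 0.417). LOC_Os04g50970 was called at 14 DAI only (-1.02 ± 0.27), and LOC_Os12g39200, described as a seed maturation protein, at 10 and 12 DAI (-1.07 ± 0.13 and -1.24 ± 0.12). Between 10 and 12 DAI in QSZ, 9 of the 13 genes were called higher, against 5.55% of all genes tested.

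**Figure D3:**
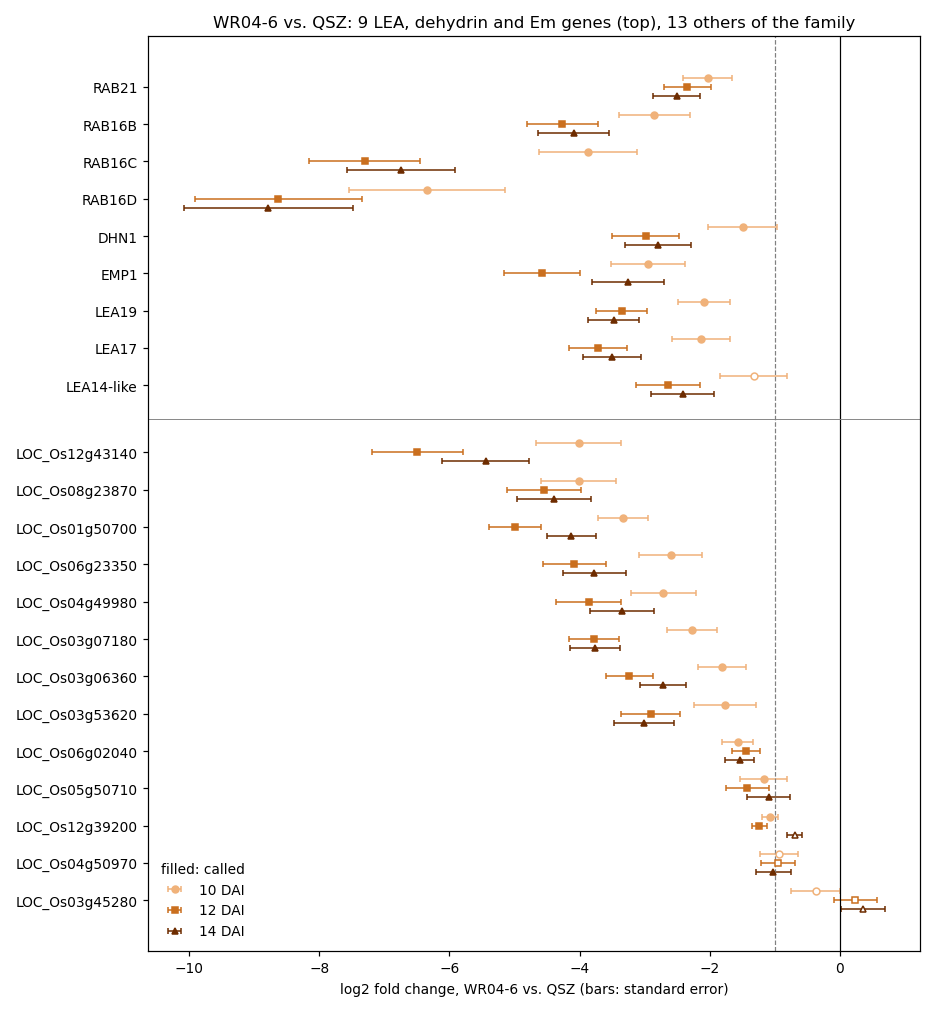
Log2 fold change, WR04-6 vs. QSZ, of the 9 genes (top) and of the 13 other family genes (bottom) at 10, 12 and 14 DAI, with bars for the standard error, filled symbols for called genes, a dashed line at -1 and a solid line at 0. All 9 genes lie left of -1 at each day, from -1.32 (LEA14-like, 10 DAI) to -8.78 (RAB16D, 14 DAI), and dehydrin 13 (LOC_Os03g45280) lies around 0.

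**Figure D4:**
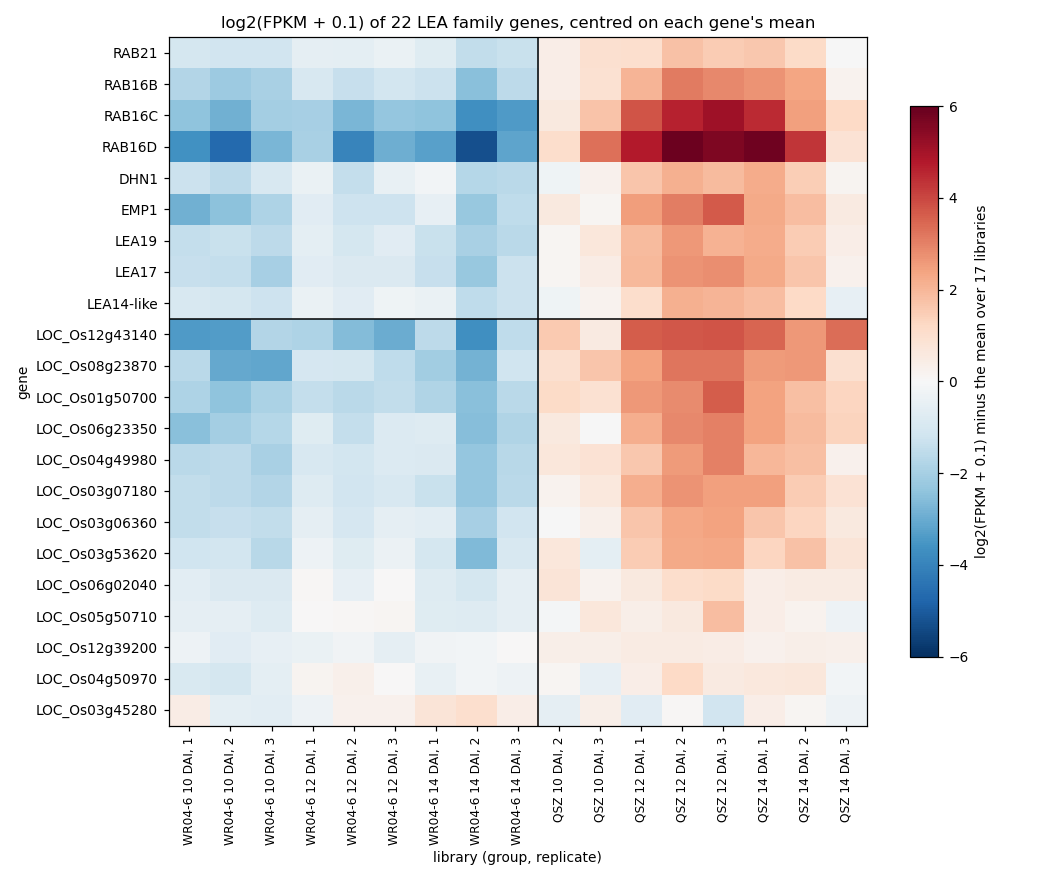
Log2(FPKM + 0.1) of the 22 genes in the 17 libraries, centred on the mean of each gene, with the 9 WR04-6 libraries left and the 8 QSZ libraries right of the vertical line, and the 9 genes above the horizontal line. Most rows are blue (low) in WR04-6 and red (high) in QSZ, deepest in the RAB16D and RAB16C rows, and replicate 3 of QSZ at 14 DAI is paler in the rows of the 9 genes than the other QSZ libraries of 12 and 14 DAI.

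Of 7 transcription factors that act in the seed ABA response, 0 were called at 10 DAI, 3 were called lower in WR04-6 at 12 DAI and 2 at 14 DAI. The share of all genes tested that was called lower at these days was 11.4%, 13.2% and 10.9%. At 12 DAI the log2 fold change was -1.42 for VP1 (LOC_Os01g68370), the B3 domain factor of seed maturation, -1.13 for TRAB1 (LOC_Os08g36790), a bZIP factor that binds ABA-responsive promoter elements, and -1.05 for LOC_Os09g28310 (edgeR, adjusted p = 0.000370, 1.90e-05 and 0.000553). ABI5 (LOC_Os01g64000), bZIP23 (LOC_Os02g52780) and LOC_Os06g10880 were not called at that day, with -0.98, -0.93 and -0.73, and the bZIP12-like gene (LOC_Os01g64730) fell just short of the fold threshold. The 9 genes had log2 fold changes of -2.34 to -8.63 at that day.

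The genes most like the 9 were looked for among 9147 genes whose mean FPKM reached 10, by Pearson's r over the 17 libraries with the mean pattern of the 9. The first was LOC_Os04g52110, described as the ABA-inducible protein PHV A1 (r = 0.994), which the search by descriptions had not placed on the family list. Next were the listed family genes LOC_Os03g07180 (0.991), LOC_Os04g49980 (0.989) and LOC_Os03g06360 (0.989), and LOC_Os10g36180, described as a low-temperature-induced 65 kDa protein (0.989). The mean FPKM of LOC_Os04g52110 was 102 in WR04-6 and 718 in QSZ. In the GO terms of the table, 6 of the 9 genes were annotated with response to abscisic acid, against 1.39% of the genes tested, and 5 with cold acclimation, against 0.164%. Of the 13 other family genes, 2 carried the first term and 0 the second. The 9 genes were chosen as dehydrin, Em and LEA genes, so these shares describe the choice and are not a test.

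Transcripts used as markers of seed tissues also differed between the accessions. The summed FPKM of 2 oleosin genes, markers of oil bodies in embryo and aleurone, was 104.6 to 375 in WR04-6 and 1115 to 4196 in QSZ, so that the accessions did not overlap. That of 4 storage protein genes of the starchy endosperm was 2044 to 6758 in WR04-6 and 5903 to 23290.4 in QSZ, with an overlap between the accessions. That of 4 photosynthesis genes of green shoot was 25.2 to 182 in WR04-6 and 2.19 to 99.3 in QSZ, and that of 1 root gene 9.36 to 59.2 in WR04-6 and 0 to 29.3 in QSZ. All these genes were above 0 in at least 1 library of each group, but some only by about 1 fragment or less. LOC_Os12g19470 had at most 3 estimated counts in a QSZ library at 12 DAI and 4 at 14 DAI. LOC_Os01g41710 had at most 2 in QSZ at 12 DAI. The sum of the 4 photosynthesis genes does not describe each of them, since LOC_Os09g17740 had the highest mean FPKM of the 4 in every group. LOC_Os09g17740 and LOC_Os12g19470 had higher means in WR04-6 than in QSZ at each day. The mean of LOC_Os12g17600 was lower in WR04-6 at each day, and that of LOC_Os01g41710 at 10 DAI only. LOC_Os12g19470 was near the floor, with a mean FPKM of at most 0.511, in WR04-6 at 12 DAI. The means of LOC_Os01g41710 in WR04-6 at 10 and 12 DAI rested on 1 library each. Those libraries had FPKM of 2.89 and 2.46, against group medians of 0.205 and 0.239. Of all estimated counts, the share held by the top 50 genes was at most 9.28% in a WR04-6 library and at most 21.6% in a QSZ library. The part of these differences in the values of the 9 genes was not tested.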

How the data were processed

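RNA was sequenced as paired reads from germinating seeds of WR04-6 and QSZ, with groups and replicate numbers taken from the labels. Per the labels, cutadapt 1.9, HISAT2 2.0.4 and StringTie 1.3.4d are named in the submitters' processing notes. The authors deposited FPKM and estimated counts per gene for 17 libraries, with MSUv7.0 gene IDs and coordinates. The deposited estimated counts are whole numbers whose most frequent low value is 4, so that 1 fragment stands for about 4 of them. A count thus overstates the number of fragments behind it. With counts divided by 4, 5296, 6726 and 4962 of all genes tested were called between the accessions at 10, 12 and 14 DAI. With the counts as deposited, 5169, 6479 and 4680 were called.

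The 21949 genes that reached an FPKM of 0.1 in 2 libraries or more entered the test, in edgeR 4.0.16 (R 4.3.3), TMM scaling and the quasi-likelihood F-test on the estimated counts, with all 6 groups in 1 fit. A gene was called at an adjusted p below 0.05 and a log2 fold change of at least 1 in size, and the interaction by adjusted p alone. The standard error was the fold change divided by the root of F. Alternatives were median-ratio scaling, library totals alone, DESeq2 1.42.0, no filter, a filter at FPKM of 1, counts divided by 4, limma 3.58.1 on log2(FPKM + 0.1, 1 or 0.01) and after quantile normalization, only the groups compared, a replicate block, no fold threshold, and each of the 17 libraries left out. The fit was also run on simulated counts with the same spread for every gene, unlike these data, so that run checks the procedure only. The text names all 9 genes, the 6 other family genes called at all 3 days with the largest mean change, all 7 ABA factors, the 5 most similar genes and any called neighbour on chromosome 11. The family genes not called at every day were named after their values were seen. The genes and lists were chosen with earlier results of these data known.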

Additional observations from a re-analysis of the deposited data

Results flagged for a closer look

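The bZIP factor LOC_Os09g28310, described as TRAB1-like and listed with the ABA factors beside the 9 genes, differed between accessions to a different extent at different days (interaction of accession and day in edgeR, adjusted p = 0.0405). Its FPKM at 10 DAI was 9.62, 11.3 and 9.86 in WR04-6, against 8.14 and 7.67 in QSZ. At 12 DAI it was 14.9, 12.8 and 15.6 in WR04-6, against 20.6, 24.8 and 23.8 in QSZ, and at 14 DAI it was 14.8, 10.6 and 8.96 in WR04-6, against 17.6, 20.7 and 13.4 in QSZ. Its log2 fold change was 0.14, -1.05 and -0.87 at these days, and it was called lower in WR04-6 at 12 DAI only.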

How the results depend on the processing

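The log2 fold changes of the 9 genes between the accessions were negative in all 783 combinations of gene, day and alternative. Of these, 762 kept their side of the threshold, 12 lost it and 9 gained it. Many of the combinations left out a library of another day, which moved the log2 fold change little, so these counts overstate the number of separate checks. Under the alternatives that kept all libraries, at least 7 of the 9 genes were called lower at 10 and 12 DAI and at least 8 at 14 DAI, with the lowest values at 12 and 14 DAI after quantile normalization. Between days in QSZ, DESeq2 called 1 of the 9 genes from 12 to 14 DAI and 5 from 10 to 14 DAI, and 1 for the interaction, where edgeR called 0. When single libraries were omitted, 2 to 8 were called higher from 10 to 12 DAI, 0 to 3 from 12 to 14 DAI, 0 to 4 from 10 to 14 DAI and 0 to 3 for the interaction. The cause of these differences was not tested. Samples with the same replicate number did not deviate together (40 pairs, median r = -0.00678, 7 pairs over 0.1), and with the replicate block 8, 9 and 9 genes were called lower at the 3 days. Scaling by library totals alone moved the median of all genes to 0.22, 0.44 and 0.38 on the log2 scale. The genes called higher and lower in WR04-6 at 10 DAI were then 3488 and 1991, against 2660 and 2509 with TMM. For 12 DAI they were 5258 and 2005, against 3582 and 2897, and for 14 DAI 3492 and 1745, against 2297 and 2383. Relative to the median of all genes, the median of the 9 genes was -2.16, -3.77 and -3.54 with library totals and -2.17, -3.78 and -3.55 with TMM, but -1.60, -2.87 and -2.73 with quantile normalization and limma. Depth limits the level of RAB16D in WR04-6 most, and the 2 libraries of QSZ at 10 DAI limit every comparison with that day.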
